A study of Macaca radiata with 4 samples.

Results

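CYP11B1 and CYP11B2 encode the 11beta-hydroxylases, and on the arrays examined here each gene was read by 2 probe sets. The members are all probe sets whose single gene symbol is CYP11B1 or CYP11B2, which gave 4 of the 52766 probe sets that are not controls, and 2 of the 14132 genes with a symbol of their own. The genes were chosen by their log2 signals on these same arrays, rhLH against each PBS array, so the differences between rhLH and PBS below are a description and carry no test. RNA was taken from the corpus luteum of female Macaca radiata, the bonnet monkey, and hybridised to rhesus macaque arrays, 2 per group. On luteal day 7 every animal received 150 µg/kg of CET, an agent that per the labels suppresses the animal's own LH. At 24 h the rhLH group (replicates 3 and 4) was injected with 20 IU/kg of recombinant LH and the PBS group (replicates 1 and 2) with the vehicle, and the gland was removed 8 h after the injection. The labels state 2 animals per group but tie no array to an animal, and no animal without CET is among the 4 samples, so the arrays compare LH given back with LH still withdrawn.

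The 11beta-hydroxylases are cytochrome P450 enzymes of the inner mitochondrial membrane and are best known from the adrenal cortex. There CYP11B1 makes cortisol from 11-deoxycortisol and corticosterone from 11-deoxycorticosterone, while CYP11B2, aldosterone synthase, carries corticosterone on to aldosterone. Both take electrons from NADPH through ferredoxin reductase (FDXR) and ferredoxin (FDX1), the pair that also serves cholesterol side chain cleavage. The corpus luteum is known for making progesterone, which CYP21A2 converts to 11-deoxycorticosterone. The proteins of CYP11B1 and CYP11B2 are closely alike, so a probe set named for one gene may bind the transcript of the other. How far this happened was not tested, as probe sequences were not used here.

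Before the members, the arrays themselves are described. PBS replicate 1 stood apart from the other 3 arrays: its log2 signals correlated with theirs at 0.75 to 0.78 across kept probe sets, against 0.94 to 0.95 among those 3. Its median signal was 186, against 136 and 135 on rhLH replicates 3 and 4 and 139 on PBS replicate 2. The level exceeded by the brightest 1% of its probe sets was 8734, against 11773, 11966 and 12064 on those arrays. The ratio of 3′ to 5′ actin control signals, commonly read as a sign of RNA integrity, was 1.59 and 1.54 on the rhLH arrays, and 11.2 on PBS replicate 1 and 1.49 on PBS replicate 2. The same ratio for GAPDH was 2.28 and 1.62 on the rhLH arrays, and 3.23 and 1.88 on the PBS arrays. Of the luteal markers looked up by percentile, STAR and HSD3B2 stood at or above percentile 99.7 of all signals on every array, INHA at or above 98.8 and CYP19A1 at or above 91.9. Of the other granulosa-lutein markers, HSD17B1 on both PBS arrays and AMHR2 on PBS replicate 1 lay below the signal of 90.7 used as the filter level.

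CYP11B1 had higher signals on both rhLH arrays than on either PBS array, in both of its probe sets. The brighter one, MmugDNA.1790.1.S1_at, read 3901 and 1715 on rhLH replicates 3 and 4, against 600.0 and 722 on PBS replicates 1 and 2. The groups did not overlap, and the lowest rhLH value was 2.34 times the highest PBS value on the scale of signal plus 16 that is used for every fold below. In means the signal was 2808 ± 1546 with rhLH and 661 ± 86.4 with PBS (SD, n = 2 each), a fold of 3.86 from the mean log2 values. As this is RNA from whole tissue, more cells that express CYP11B1 and more transcript per cell cannot be told apart.

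The other CYP11B1 probe set, MmugDNA.25500.1.S1_at, showed the same order of arrays within the rhLH group at lower signals. It read 851 and 498 on rhLH replicates 3 and 4, against 312 and 254 on PBS replicates 1 and 2. Its groups did not overlap either, with a gap of 1.57-fold between the nearest arrays. The means were 675 ± 249.5 with rhLH and 283 ± 41.2 with PBS (SD, n = 2 each), a fold of 2.25. Signals of different probe sets cannot be ranked against each other as transcript levels, so only the direction and the fold of this pair are set side by side.

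The excess did not rest on the PBS array that stood apart. Against PBS replicate 1 alone the mean of the rhLH arrays was 4.23-fold higher for MmugDNA.1790.1.S1_at and 2.04-fold higher for MmugDNA.25500.1.S1_at. Against PBS replicate 2 alone it was 3.53-fold and 2.48-fold higher. The larger source of spread lay inside the rhLH group: replicate 3 exceeded replicate 4 by 2.26-fold in the first probe set and by 1.69-fold in the other. The PBS arrays differed by 0.83-fold and 1.22-fold, replicate 1 over replicate 2, in the same order of probe sets. With rhLH replicate 4 as the only rhLH array the log2 differences were 1.36 and 0.79, and with rhLH replicate 3 alone they were 2.54 and 1.54.

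**Figure D1:**
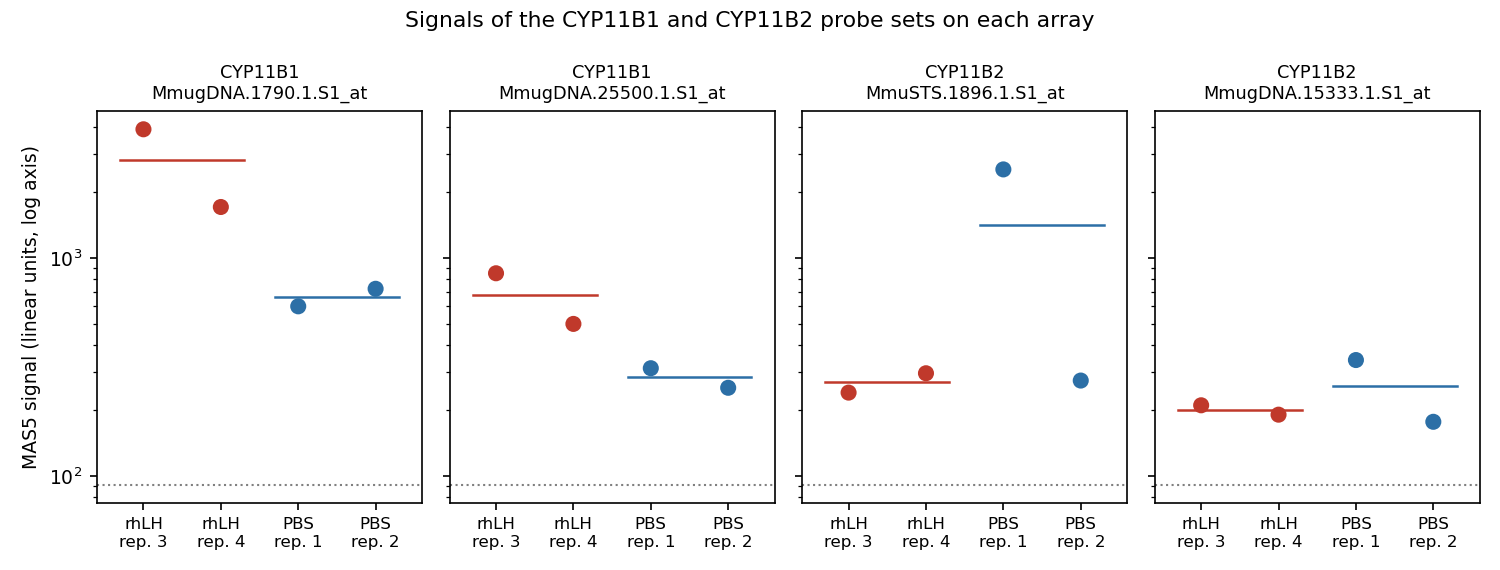
MAS5 signal (log axis) of each CYP11B1 and CYP11B2 probe set on the 2 rhLH arrays (red) and the 2 PBS arrays (blue), with horizontal lines at the group means and a dotted line at the filter level of 90.7. Both CYP11B1 probe sets have their rhLH points above their PBS points, and the single high CYP11B2 point, at 2552, is PBS replicate 1.

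CYP11B2 showed no such separation. Its probe set MmuSTS.1896.1.S1_at read 241 and 296 on rhLH replicates 3 and 4, against 2552 and 274 on PBS replicates 1 and 2. One PBS array was thus far above the rest while the other lay between the rhLH arrays. The means, 268 ± 38.7 with rhLH and 1413 ± 1611 with PBS (SD, n = 2 each), describe no typical array of the PBS group, whose SD exceeds its mean. The log2 difference of -1.61 was -3.18 when taken against PBS replicate 1 and -0.03 when taken against the other PBS array, so PBS replicate 1 alone sets it. Over the other 3 arrays the highest and the lowest value of the probe set lay within 1.21-fold of each other.

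The other CYP11B2 probe set, MmugDNA.15333.1.S1_at, read 211 and 191 on rhLH replicates 3 and 4, against 340 and 177 on PBS replicates 1 and 2. PBS replicate 1 was again the highest array, but by 1.57-fold over the next, where MmuSTS.1896.1.S1_at had 8.24-fold. Its log2 difference was -0.28 (-0.72 from PBS replicate 1 and 0.17 from PBS replicate 2) and it changed sign when PBS replicate 1 was left out. Among the kept probe sets, 93 (0.294%) were highest on PBS replicate 1 by at least 8-fold over every other array, as against 4, 0 and 1 for rhLH replicate 3, rhLH replicate 4 and PBS replicate 2. The high reading of MmuSTS.1896.1.S1_at is one of those 93, and whether it comes from the animal or from the state of that RNA was not tested.

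All 4 probe sets passed the filter on low signals (a mean above the level of 90.7), and all 16 of their signals were above that level. MmugDNA.1790.1.S1_at stood at percentiles 96.1 and 90.6 of all signals on the rhLH arrays, and at 76.2 and 80.2 on the PBS arrays. MmugDNA.25500.1.S1_at stood at 82.6 and 74.7 on the rhLH arrays, and at 62.3 and 63.1 on the PBS arrays. The CYP11B2 probe sets lay between percentiles 55.8 and 66.1 on every array, with the exception of MmuSTS.1896.1.S1_at on PBS replicate 1 (94.4). The files give no detection calls, so whether the CYP11B2 readings lie above background is unknown.

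Of the 31659 kept probe sets, 109 (0.344%) were at least 2-fold higher on every rhLH array than on every PBS array, and 155 (0.49%) were at least 2-fold lower. One member, MmugDNA.1790.1.S1_at, was among the first, and 0 of the 4 were among the second. Both rhLH arrays lay above both PBS arrays for 2 of the 4 members, where 4573 kept probe sets (14.4%) did, and below them for 0, where 5608 (17.7%) did. Since the contrast itself led to the choice of the genes, these counts only place the members in the distribution. The split of the 2-fold counts depends on the scaling: 41.3% were on the higher side with the signals as deposited, 56.1% (152 against 119) after quantile normalization and 60.8% (175 against 113) with each array centred on its median.

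By the size of the pooled log2 difference, MmugDNA.1790.1.S1_at (1.95) stood at percentile 99.6 of kept probe sets and MmugDNA.25500.1.S1_at (1.17) at percentile 96.3. Against PBS replicate 2 alone, the array that resembled the rhLH arrays, the same probe sets stood at percentiles 99.2 and 98.03. Against PBS replicate 1 alone they stood at 95.8 and 84.4. MmuSTS.1896.1.S1_at stood at percentile 0.50 against PBS replicate 1 and 48.2 against PBS replicate 2, and MmugDNA.15333.1.S1_at at 27.7 and 67.7. The CYP11B1 probe sets thus lay toward the upper end against each PBS array, and the CYP11B2 probe sets near the middle of all kept probe sets against PBS replicate 2.

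**Figure D2:**
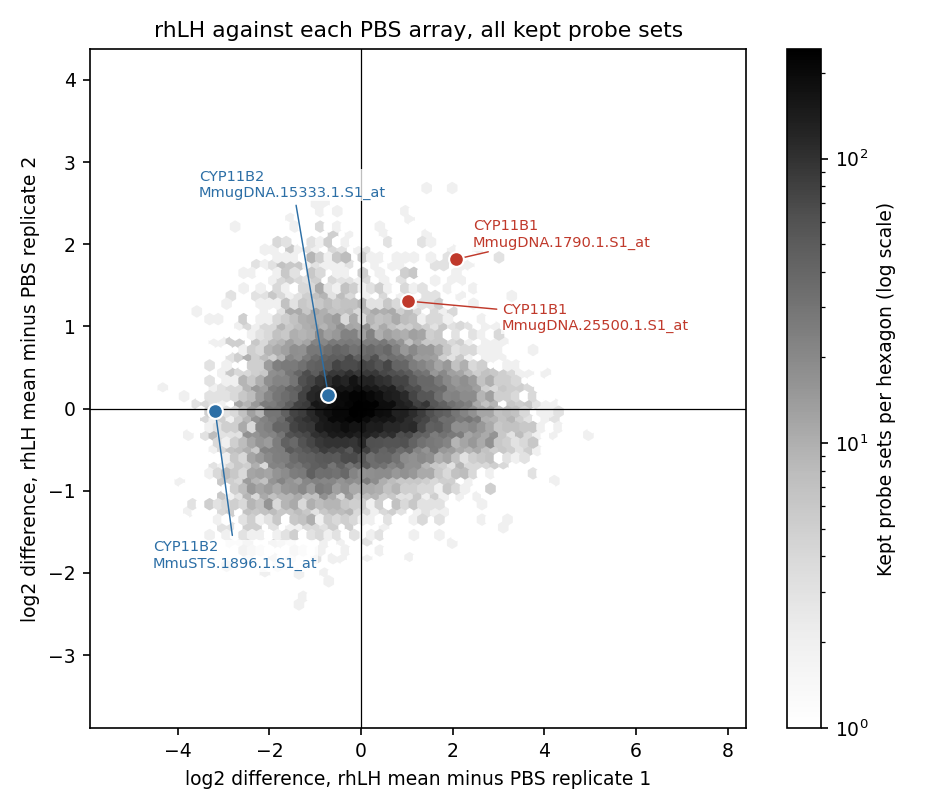
Log2 difference of the rhLH mean from PBS replicate 1 (horizontal axis) and from PBS replicate 2 (vertical axis) for all 31659 kept probe sets (grey, darker where denser), with the CYP11B1 (red) and CYP11B2 (blue) probe sets marked. The CYP11B1 points lie in the upper right quadrant, at 2.08 and 1.82 for MmugDNA.1790.1.S1_at, whereas the CYP11B2 points lie close to 0 on the vertical axis.

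Probe sets of one gene do not always move together on this array. Of the 2709 genes read by exactly 2 kept probe sets, 61.2% had both pooled differences on one side of 0, and the median distance between the 2 differences was 0.45 on the log2 scale. The CYP11B1 pair lay 0.78 apart, more than 74.2% of such pairs, with both differences on one side of 0. Of those genes, 29 (1.07%) had both probe sets at least 1 unit higher with rhLH, including CYP11B1, which was chosen by this contrast. The CYP11B2 pair, also with both differences on one side, lay 1.33 apart, more than 92.1% of such pairs.

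Likeness of pattern over the 4 arrays was measured as the root mean square distance between log2 values centred on their own mean, among 18150 kept probe sets with 1 symbol. With only 4 arrays this ranking is a description. The 5 genes nearest to MmugDNA.1790.1.S1_at were LOC714008 (distance 0.08), ZNF75D (0.12), DIRAS3 (0.19), HSD17B7 (0.20) and IL1RL1 (0.21). For HSD17B7 this was MmugDNA.35206.1.S1_s_at, with a log2 difference of 1.74, while its brightest probe set stood at 1.09 and a further one at 0.20. ZNF75D encodes a zinc finger protein and DIRAS3 a small GTPase of the Ras family, while HSD17B7 acts in cholesterol synthesis and on estrogens and IL1RL1 is the receptor of interleukin 33. LOC714008 read 7140 and 3281 on rhLH replicates 3 and 4, against 1237 and 1271 on the PBS arrays. IL1RL1 read 5994 and 2589 with rhLH, against 1030 and 1581 with PBS. All 5 had a higher signal on rhLH replicate 3 than on rhLH replicate 4, as CYP11B1 did, which follows from their choice by likeness. The other CYP11B1 probe set lay at a distance of 0.46, closer than all but 0.253% of the candidates.

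For MmuSTS.1896.1.S1_at the nearest genes were PRRG3 (0.05), MAMU-E (0.09), PRR36 (0.09), EZH1 (0.12), a histone methyltransferase, and GPC3 (0.15), a cell surface proteoglycan. Being chosen by likeness, all of them had the shape of a single high reading on PBS replicate 1. EZH1 read 151 on both rhLH arrays, and 1700.4 and 169.6 on the PBS arrays. GPC3 read 83.8 and 75.7 with rhLH, and 824 and 85.6 with PBS. The other CYP11B2 probe set was far from this shape, at a distance of 1.05, and 18.2% of the candidates were closer.

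**Figure D3:**
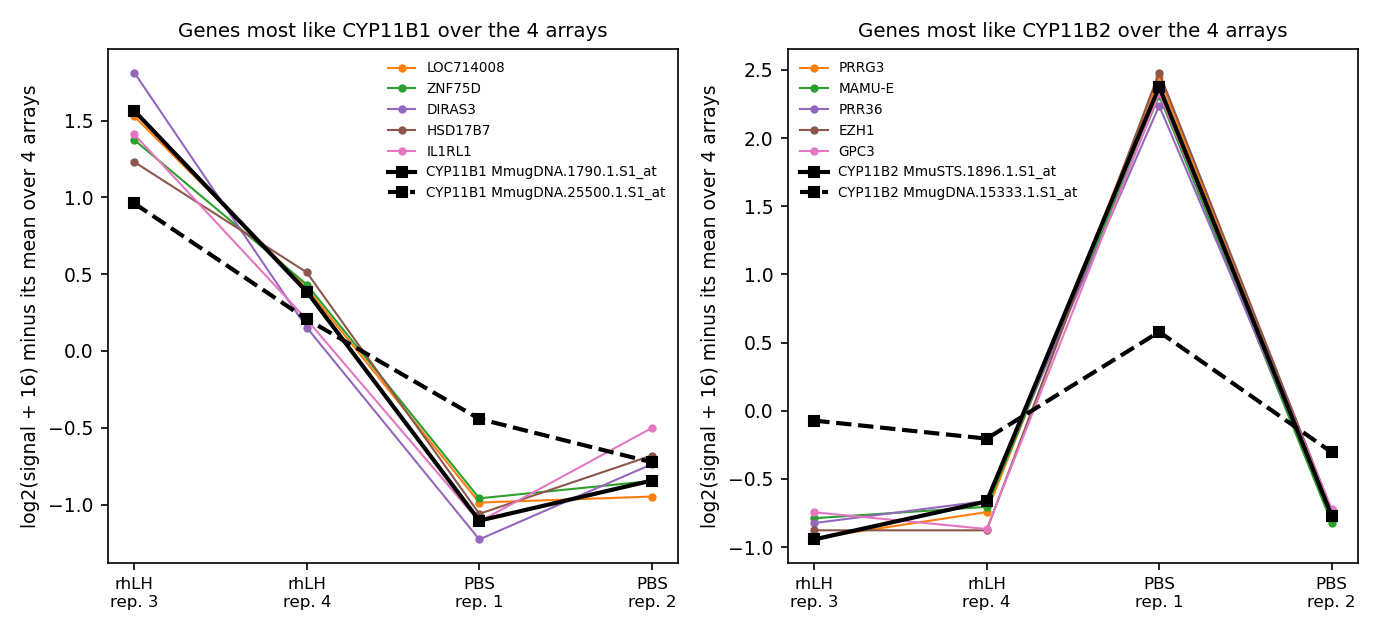
Log2(signal + 16) centred on the mean over the 4 arrays, for the brighter probe set of each gene (solid black), the other probe set of the gene (dashed black) and the 5 nearest genes (coloured lines), on rhLH replicates 3 and 4 and PBS replicates 1 and 2. The CYP11B1 group is highest on rhLH replicate 3 and low on both PBS arrays, while the CYP11B2 group is a single peak on PBS replicate 1 that MmugDNA.15333.1.S1_at shows only weakly.

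The genes around the 11beta-hydroxylases were examined in 6 lists with 96 genes, of which 64 had a kept probe set. In the limma test over all 31659 kept probe sets 0 were called at an adjusted p of 0.05 (0%), and the smallest adjusted p was 0.919, while 641 (2.02%) had an unadjusted p under 0.05. Accordingly 0 of the 64 list genes passed, 6 had an unadjusted p under 0.05, and limma's adjusted p was 0.919 or above for every list gene named below. Of the 64, 16 (25%) lay above both PBS arrays and 7 (10.9%) below, beside 16.3% and 16.1% of all 10998 genes. Those at least 2-fold higher in every pair of arrays were HSD17B1 and ALAS1, and 0 were 2-fold lower. HSD17B1 passed the filter only through its rhLH signals (273 and 319), since its PBS signals (67.1 and 51.4) lay below the filter level.

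The corticosteroid list, which holds enzymes before and after the 11beta-hydroxylases and the receptors, had 8 of 18 genes kept, with a median log2 difference of 0.28, where all genes had 0.02. Taken against PBS replicate 1 the median was 0.64, and taken against PBS replicate 2 it was 0.06. HSD3B2 and HSD11B1 exceeded both PBS arrays, and 0 genes were below both, beside 16.3% and 16.1% of all 10998 genes. Upstream of the 11beta-hydroxylases, STAR, which moves cholesterol into mitochondria, differed by 1.10 and -0.07 against PBS replicates 1 and 2. HSD3B2, which makes progesterone, had signals of 33922 and 38138 with rhLH and 25500.1 and 29153 with PBS (log2 difference 0.40), which became -0.01 after quantile normalization. CYP17A1, the 17alpha-hydroxylase needed for cortisol but not for corticosterone, read 2296 and 5336 on rhLH replicates 3 and 4, against 1715 and 6687 on the PBS arrays, so its groups overlapped.

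CYP21A2, the 21-hydroxylase that makes 11-deoxycorticosterone and 11-deoxycortisol, did not pass the filter. Its probe set read 13.2 and 92.1 on the rhLH arrays, and 262 and 35.2 on the PBS arrays. The highest reading was again PBS replicate 1, and only 2 of the 4 signals exceeded the filter level of 90.7. For CYP11A1, HSD11B2 and NR3C2 no probe set was matched by symbol, and they were not analysed here.

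Downstream, HSD11B1, which regenerates cortisol from cortisone in cells, read 28255 and 27199 with rhLH, against 17685 and 27121 with PBS. Its log2 difference of 0.65 against PBS replicate 1 compared with 0.03 against PBS replicate 2. NR3C1, the glucocorticoid receptor, read 1240 and 1361 with rhLH, against 1416 and 1216 with PBS (log2 difference -0.01), and its further probe sets stood at -0.08 and -0.49. The rhLH arrays thus barely exceeded PBS replicate 2 for HSD11B1, and the groups overlapped for NR3C1.

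Among the electron transfer partners, the differences on the brightest probe sets of FDX1 and FDXR depended on the PBS array. FDX1 read 30546 and 34166 with rhLH, against 20934 and 32254 with PBS, a log2 difference of 0.31 that was 0.00 against PBS replicate 2 and -0.03 after quantile normalization. Against PBS replicates 1 and 2, a further FDX1 probe set gave 0.53 and 0.18, above both PBS arrays. Another FDX1 probe set gave -0.15 and -0.33, below both. FDXR differed by 1.27 against PBS replicate 1 and by -0.44 against PBS replicate 2, and its further probe set by 1.77 and -0.28. In the list of 10 kept genes (of 13) the median was 0.27 (0.39 and 0.02 from PBS replicates 1 and 2). The genes above both PBS arrays were POR, the reductase of microsomal P450 enzymes (0.72, with its 3 further probe sets at -0.17 to -0.55), and CYB5B, a cytochrome b5 of the outer mitochondrial membrane (0.16 and 0.30, with pooled differences of 1.14 and 0.81 on its further probe sets), and 0 lay below. Against PBS replicate 2 alone POR stood at 0.02.

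CYP19A1, the aromatase, and HSD17B1, which makes estradiol from estrone, had pooled log2 differences of 2.11 and 2.06, beside 1.95 for the brighter CYP11B1 probe set. CYP19A1 had log2 differences of 3.10 and 1.13 against PBS replicates 1 and 2, and HSD17B1 of 1.91 and 2.21. HSD17B1 passed the filter only through its rhLH signals. Its pooled difference was 2.31 with a pseudocount of 1 and 1.55 with a pseudocount of 64. HSD17B7 had 1.22 and 0.96 on its brightest probe set, and its further probe sets stood at 1.74 and 0.20. HSD17B4, an enzyme of peroxisomal fatty acid oxidation that also inactivates estradiol, stood at -0.26, below both PBS arrays, while its further probe set stood at 0.23. Of the 13 genes in this list 5 were kept, with a median of 1.09. Of the 5, 3 exceeded both PBS arrays, HSD17B1 among them, while HSD17B4 alone was below, beside 16.3% and 16.1% of all 10998 genes.

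Heme, the cofactor of every P450 enzyme, is made by a pathway whose first enzyme is ALAS1. ALAS1 read 4692 and 5735 with rhLH, against 1195 and 1960 with PBS (log2 difference 1.75), and its groups did not overlap. The median over 7 kept genes (of 8) was 0.50 (0.92 and 0.08 from PBS replicates 1 and 2). Of the 7, 3 lay above both and 1 below, beside 16.3% and 16.1% of all 10998 genes. Above both lay also PPOX (1.47 and 0.19 against PBS replicates 1 and 2) and UROS (0.42 and 0.31), later enzymes of the pathway. FECH, which inserts the iron, lay below on its brightest probe set (-0.35), while its further probe set overlapped (-0.41 and 0.02).

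Among regulators of steroidogenic P450 genes, 21 of 25 were kept, with a median of 0.09. Of the 21, 3 exceeded both PBS arrays and 4 were below both, close to the shares of 16.3% and 16.1% among all 10998 genes. NR5A1, steroidogenic factor 1, differed by 1.56 against PBS replicate 1 and by 0.02 against PBS replicate 2, while its relative NR5A2 differed by 0.90 and 0.35. NR4A1 (Nur77), a nuclear receptor known from human adrenal cells as an activator of CYP11B2, read 487 and 1605 on rhLH replicates 3 and 4, against 1633 and 3684 on the PBS arrays. The nearest NR4A1 arrays of the groups were 1605 and 1633, and its further probe set differed by 1.52 against PBS replicate 1 and -2.29 against PBS replicate 2. NR4A2 differed by -0.81 and -0.22 and overlapped on its brightest probe set. Of its 4 further probe sets, those at -0.63, -0.75 and -1.72 lay below both PBS arrays and the one at -0.36 overlapped. NR0B1 (DAX1), a repressor of steroidogenic genes, stood at -0.69, and CAMK1, a calcium-dependent kinase, at 3.14 and 0.22.

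Genes known to respond to glucocorticoids showed opposite medians against the PBS arrays, 0.86 against replicate 1 and -0.63 against replicate 2, over 13 kept genes (of 19). FKBP5, a co-chaperone of the glucocorticoid receptor, read 830 and 860 on the rhLH arrays, and 198 and 1475 on the PBS arrays. TSC22D3 (GILZ) read 6591 and 6156 with rhLH, against 3473 and 5902 with PBS (log2 difference 0.49). Above both PBS arrays lay 3 genes, TSC22D3 together with the metallothionein MT2A (3.10 and 0.78) and the lipase inhibitor ANGPTL4 (1.85 and 0.75), and 1 lay below, glutamine synthetase GLUL (-0.57). Against PBS replicates 1 and 2 a further ANGPTL4 probe set gave 3.88 and 0.09 and a further GLUL probe set 0.53 and -0.94, and both overlapped. The list as a whole had no direction that held against both PBS arrays.

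**Figure D4:**
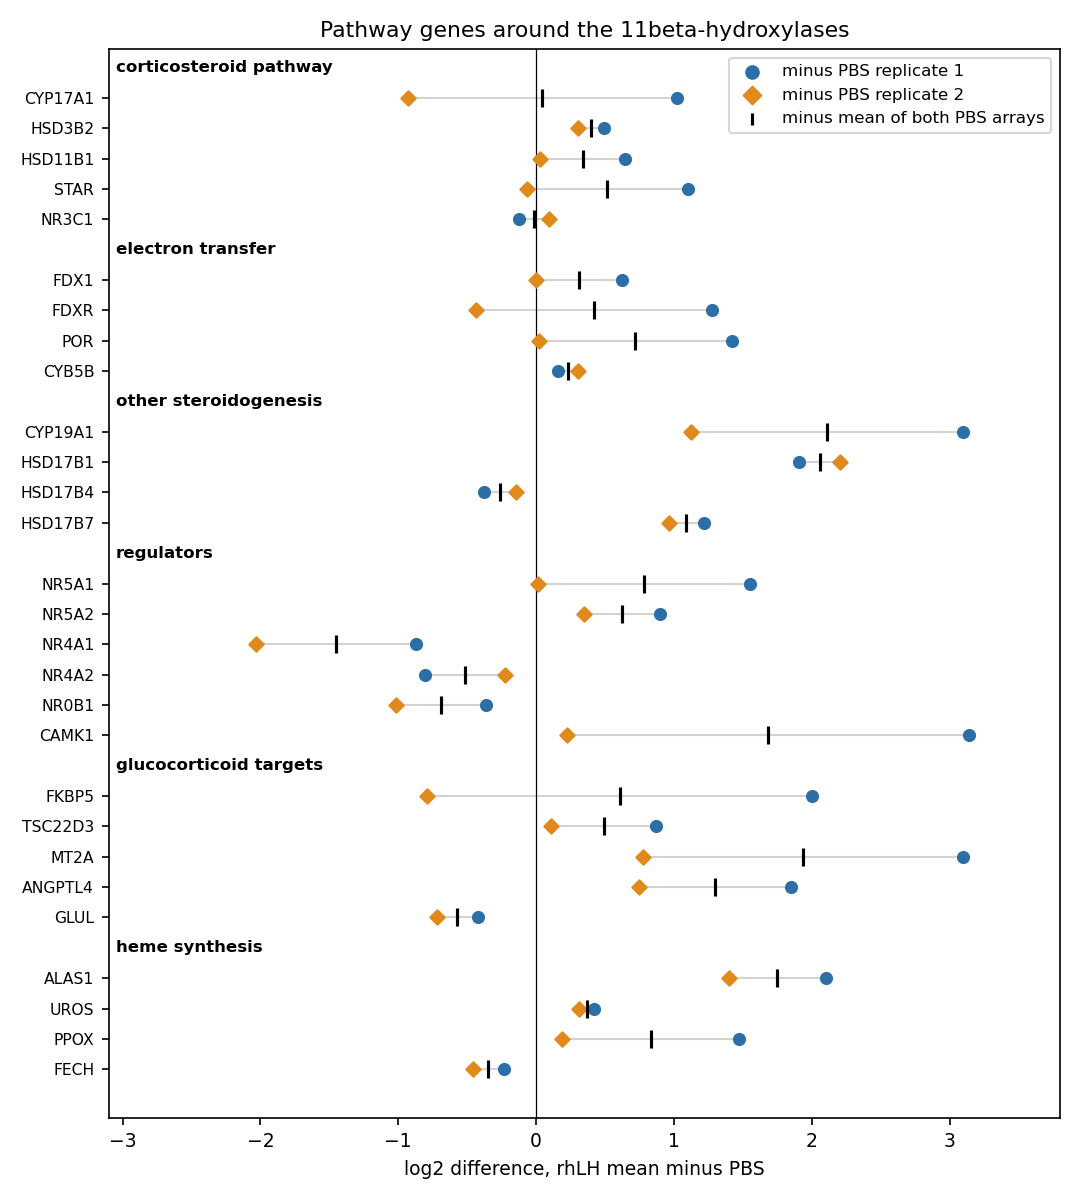
Log2 difference of the rhLH mean from PBS replicate 1 (circles), PBS replicate 2 (diamonds) and the mean of both (bars) for the named genes of the 6 lists. Long lines join values that depend on which PBS array is used, as for FKBP5 (2.01 and -0.79). HSD17B1 and ALAS1 lie well above 0 against both, but HSD17B1 passed the filter only through its rhLH signals.

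Adrenal cortex markers were checked because the members are adrenal genes. Of the 10 markers, 6 were kept: CYP11B1, CYP11B2, MRAP, CYP17A1, MGARP and AS3MT. CYP11B1 and CYP11B2 are the members, chosen by this contrast, so their values add nothing to the check. Apart from them, AS3MT lay below both PBS arrays, and MRAP, CYP17A1 and MGARP overlapped between the groups. The summed signal of the 6, members included, was 13510 and 17944 on the rhLH arrays, and 11934 and 16184 on the PBS arrays. The 2 probe sets of MC2R, the ACTH receptor that defines adrenocortical cells, read 4.74 to 61.2 on the rhLH arrays and 21.6 to 254 on the PBS arrays, and neither passed the filter. SULT2A1, a sulfotransferase of the adrenal reticularis, had 3 probe sets, none of them kept.

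Markers of the cells that a corpus luteum can hold were summed on each array, and limma called 0 of them. The 8 kept granulosa-lutein markers (of 12) summed to 149335 and 160917 on the rhLH arrays, and to 69421 and 149241 on the PBS arrays. The sum on rhLH replicate 3 thus barely exceeded that on PBS replicate 2. Of the 8, 5 lay above both PBS arrays and 0 below, beside 16.3% and 16.1% of all 10998 genes. Among the 5 were HSD17B1, kept only through its rhLH signals, and AMHR2, which was below the filter level on PBS replicate 1. Endothelial markers (9 of 10 kept) summed to 24942 and 29081 with rhLH and 21870 and 28476 with PBS, and fibroblast markers (5 of 6) to 54775 and 60830 with rhLH and 32598 and 63334 with PBS, so both overlapped between the groups. Smooth muscle markers (4 of 8) summed to 14398 and 17515 with rhLH and 9929 and 13769 with PBS. Only TAGLN of these lay above both PBS arrays (6118 and 6561 with rhLH, 2668 and 2568 with PBS). MYH11, CNN1 and MCAM overlapped, with MYH11 at a log2 difference of -0.65. Theca (2 of 4), macrophage (5 of 7) and erythroid (2 of 5) markers overlapped between the groups in their sums, and 2 of 7 T and NK cell markers summed to 15897 and 16102 with rhLH and 4572 and 11009 with PBS, nearly all of it GZMB. The macrophage markers summed to 5677 and 3351 with rhLH and to 2754 and 4129 with PBS. The part of cell composition in the CYP11B1 difference was not tested.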

How the data were processed

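The authors deposited a table of linear intensity values with MAS5 named in the submitters' processing notes, and 1 value per probe set and array. For the scaling target, filters and detection calls nothing was given in the sources used here. The table holds 52865 probe sets, of which 99 controls were set aside. The 2% trimmed mean was 500.0 on every array, so no further normalization was applied. The distributions still differed, with a higher median and a lower upper end on PBS replicate 1. Differences of bright genes and summed signals against that array depend on this scaling. Signals were used as log2(signal + 16), and folds are differences of mean log2 values on the linear scale, which understates folds of dim probe sets. A probe set was kept if its mean log2 over the arrays exceeded the 40th percentile (a signal of 90.7), leaving 31659. Gene symbols came from a platform annotation: 24956 probe sets had 1 symbol, 361 several and 27449 none. For genes other than the members the brightest kept probe set was used. All kept probe sets, the members included, went into a two-sided limma fit (version 3.58.1, R 4.3.3, trended eBayes). Benjamini-Hochberg adjustment was over all kept probe sets. No test result is given for the members, and the code was tested on simulated data.

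The members, the lists and the rule for naming genes were chosen with earlier results of these data known. The rule names every member probe set, a panel of steroid genes, up to 4 genes per list whose groups do not overlap, with the largest differences, and the 5 genes nearest in pattern. HSD11B2, NR3C2 and CYP11A1, panel genes without a probe set matched by symbol, were not used. Alternatives covered the pseudocount, the normalization, the filter, limma's trend and array weights, the choice of probe set and leaving out each array. Having 2 arrays in each group limits the precision, and p-values cover only the spread among these 4 arrays, which may be partly technical. No sequences or coordinates are given.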

Additional observations from a re-analysis of the deposited data

How the results depend on the processing

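The log2 differences of the CYP11B1 probe sets were positive under every alternative run for them, at 1.88 to 2.18 and 1.05 to 1.39 over other pseudocounts and normalizations, and at 1.36 to 2.54 and 0.79 to 1.54 with 1 array left out. Those of CYP11B2 ran from -1.64 to -1.38 for MmuSTS.1896.1.S1_at and from -0.29 to -0.05 for MmugDNA.15333.1.S1_at over the same settings, and from -3.18 to -0.03 and from -0.72 to 0.17 with 1 array left out. The limma test gave 0 calls except without PBS replicate 2, where it gave 8027 calls and called 27 list genes. Probe sets past 2-fold numbered 109 higher and 155 lower as reported, 65 and 58 with a pseudocount of 64, 378 and 798 with no filter, 42 and 19 with a filter at the 70th percentile, and 175 higher with arrays centred on their medians, a setting that moved the median of all kept probe sets to 0.19 from -0.04. With 1 array left out they ranged from 189 to 3924 higher and from 312 to 4631 lower, where fewer arrays have to differ. The largest counts, 3924 and 4631, came without PBS replicate 2, so they compare the rhLH arrays with PBS replicate 1 alone. List genes past 2-fold were 2 higher and 0 lower, 1 higher with the filter at the 70th percentile, and 2 to 17 higher and 0 to 2 lower with 1 array left out. Signs turned for HSD3B2 (-0.0098) and FDX1 (-0.026) under quantile normalization and for NR3C1 (0.21) with arrays centred; with 1 array left out CYP17A1 ran from -0.93 to 1.02, STAR from -0.066 to 1.10, NR3C1 from -0.12 to 0.095, FDXR from -0.44 to 1.27 and FKBP5 from -0.79 to 2.01. The causes were not tested. No paired analysis was possible because the groups share no replicate number.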

Other observations

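Within the rhLH group the steroid genes did not follow one order of arrays. CYP11B1 was 2.26-fold and 1.69-fold higher on replicate 3 than on replicate 4 in its 2 probe sets, and 2.84% and 7.21% of kept probe sets had a ratio as high. HSD17B7 was 1.57-fold higher on replicate 3 as well. CYP19A1 was 1.65-fold, CYP17A1 2.32-fold and NR4A1 3.22-fold higher on replicate 4, whereas STAR, FDXR and POR lay within 1.02-fold of each other on the rhLH arrays. These ratios each compare 2 arrays, have no replicate check and were looked up after the values of CYP11B1 were seen.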
